A study of Mus musculus with 6 samples.

Results

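The antioxidant and glutathione genes of the mouse duodenal epithelium were described in bulk RNA-seq of 3 WT and 3 *Esrra*-/- mice. The 39 genes were taken by symbol from a list drawn up with earlier results of these data known, and all 39 stood among the 22611 genes of the deposited expression table. *Esrra* encodes the estrogen-related receptor alpha, a nuclear receptor known as a regulator of genes of mitochondrial energy metabolism. The *Esrra*-/- mice (labelled ESRRAKO) carried a germline deletion that affects every tissue, their controls were WT littermates, and both groups were fed a high-fat diet. Animals of both sexes were used, their age is not given for this experiment, and the colony also carried a *Villin-CreERT2* transgene and floxed *Esrra* alleles. Whether any of these 6 mice carried the transgene is not stated. The epithelium of the first part of the small intestine was released with EDTA, with 1 library per mouse. The methods describe collection of the epithelium whole or of crypts and villi apart, and do not say which was done for these mice.

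Superoxide leaks from the respiratory chain and is also made by dedicated oxidases. Superoxide dismutases turn it into hydrogen peroxide, which catalase, peroxiredoxins and glutathione peroxidases break down. Peroxiredoxins are reduced by thioredoxin and glutathione peroxidases by glutathione, and both of these draw their electrons from NADPH. The mitochondrial matrix has its own set of such proteins, among them SOD2, PRDX3, TXN2 and TXNRD2. In the cytosol the transcription factor NFE2L2 (NRF2), which KEAP1 holds back, is known to drive many of these genes under oxidative or electrophilic stress. The enterocyte meets such stress from the gut lumen as well as from its own fat oxidation.

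The promoters of 5 of the genes are shown because 3 of them, *Sod2*, *Txn2* and *Prdx4*, were lower in *Esrra*-/- mice, *Prdx3* is the mitochondrial peroxiredoxin beside them, and *Srxn1*, which reduces overoxidised peroxiredoxins, is a known NFE2L2 target. Each is the run of 250 bases before the RefSeq transcription start, 5′ to 3′ on the strand of the gene, from GRCm38.p6, a later assembly than the mm9 of the expression data. *Oplah*, also called lower, had no promoter in the RefSeq set used and is not covered. Capitals mark every match, on either strand, to AGGTCA (a nuclear receptor half-site), its longer forms AAGGTCA and TCAAGGTCA (the estrogen-related receptor site), TGACTCAGC or TGAGTCAGC (an antioxidant response element core), the looser TGACNNNGC, which includes the first of these, and GGGCGG (the GC box).
Sod2, chr17:13007589-13007838, plus strand: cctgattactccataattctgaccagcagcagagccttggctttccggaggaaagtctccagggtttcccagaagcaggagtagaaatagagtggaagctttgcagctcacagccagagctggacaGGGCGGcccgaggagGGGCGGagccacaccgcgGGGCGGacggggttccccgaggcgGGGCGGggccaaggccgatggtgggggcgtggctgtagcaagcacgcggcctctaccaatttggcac
Txn2, chr15:77928995-77929244, minus strand: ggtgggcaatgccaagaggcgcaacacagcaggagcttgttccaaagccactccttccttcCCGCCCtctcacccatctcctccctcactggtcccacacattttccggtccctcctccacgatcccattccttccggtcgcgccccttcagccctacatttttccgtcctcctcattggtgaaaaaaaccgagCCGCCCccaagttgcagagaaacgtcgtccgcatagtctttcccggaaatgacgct
Prdx3, chr19:60874539-60874788, minus strand: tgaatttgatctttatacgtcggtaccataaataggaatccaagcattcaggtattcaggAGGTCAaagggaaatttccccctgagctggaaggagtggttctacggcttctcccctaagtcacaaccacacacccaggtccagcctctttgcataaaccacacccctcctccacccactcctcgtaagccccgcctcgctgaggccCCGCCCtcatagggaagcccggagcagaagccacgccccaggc
Prdx4, chrX:155338461-155338710, minus strand: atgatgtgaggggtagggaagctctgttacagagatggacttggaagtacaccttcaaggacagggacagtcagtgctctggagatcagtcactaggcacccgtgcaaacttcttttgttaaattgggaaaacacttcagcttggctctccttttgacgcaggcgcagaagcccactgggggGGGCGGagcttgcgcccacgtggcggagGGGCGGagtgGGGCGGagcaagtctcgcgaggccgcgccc
Srxn1, chr2:152105274-152105523, plus strand: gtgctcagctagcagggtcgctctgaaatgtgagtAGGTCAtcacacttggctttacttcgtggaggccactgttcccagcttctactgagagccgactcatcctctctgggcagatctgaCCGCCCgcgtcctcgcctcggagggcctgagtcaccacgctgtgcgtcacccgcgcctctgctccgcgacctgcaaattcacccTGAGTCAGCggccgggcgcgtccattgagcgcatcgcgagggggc
The *Sod2*, *Txn2* and *Prdx4* runs held the GC box 4, 2 and 3 times and no other of these motifs. The *Prdx3* run held AGGTCA, with the GC box once. The *Srxn1* run held TGAGTCAGC close to the start, AGGTCA far from it and the GC box once. Over the 32851 promoters of this length in the same RefSeq table, 14% held AGGTCA, 4.08% AAGGTCA, 0.387% TCAAGGTCA, 0.706% TGACTCAGC or TGAGTCAGC, 10.2% TGACNNNGC and 32.7% GGGCGG. Of the 32 genes of the group with a promoter in the table, 11, 2, 1, 2, 7 and 23 held these motifs in the same order. The single TCAAGGTCA lay in the *Msrb2* promoter, and the antioxidant response element cores lay in those of *Prdx1* and *Srxn1*. A match of letters is a description of the sequence and not a site of binding.

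Expression is given in FPKM, a fragment count corrected for transcript length and for library size, which can be compared between genes. *Esrra* itself, at chr19:6985467-6996303 on the minus strand of mm9, was measured at 49.4, 73.5 and 104 FPKM in WT replicates 1 to 3 and at 10.4, 9.42 and 8.72 FPKM in *Esrra*-/- replicates 1 to 3. The knockout mean was 12.6% of the WT mean, and the groups did not overlap, so each library carried the *Esrra* level of its label. FPKM gives no read number, so the depth of each library is unknown from these values and the precision of a value is given by the spread between mice. Replicate 3 of either group nearly lacked transcripts of the Y chromosome: *Ddx3y*, *Eif2s3y*, *Kdm5d* and *Uty* summed to 0.0487 and 0.222 FPKM there, against 27.3 to 46.7 FPKM in the other 4 libraries. Each genotype therefore held 2 mice with and 1 mouse without these transcripts, and differences are given within both strata where they matter.

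Of the 39 genes, 35 had a mean above 1 FPKM and were tested, among 10596 genes in all, with limma on log2(FPKM + 0.1). To be called, a gene needed a limma p, before adjustment, under 0.05 and a log2 ratio of *Esrra*-/- to WT above 0.58 or below −0.58. *Sod2*, *Txn2*, *Prdx4* and *Oplah* were called lower, or 4 of 35, where 3.28% of all genes tested were called lower. None was called higher, where 1.35% of all genes were. An unadjusted p under 0.05 was reached by 6 of 35, these 4 with *Prdx2* and *Prdx3*, all 6 with a negative fold change, against 10.8% of all genes, 6.49% with a negative and 4.3% with a positive one. After limma p-values were adjusted by Benjamini-Hochberg over all 10596 genes, none of the 35 stood under 0.05 (the smallest was 0.186, for *Sod2*), as against 0.0378% of all genes. Over the whole group, 18 fold changes were negative and 17 positive, where 45.7% of all genes tested had a negative one, with a median of −0.02 on the log2 scale, beside 0.03 over all genes tested. A lower value in bulk epithelium can stand for fewer cells of a type or for less RNA per cell, which cannot be told apart here.

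*Sod2*, the manganese superoxide dismutase of the mitochondrial matrix, gave the smallest p of the group. It lies at chr17:13200705-13210985 on the plus strand of mm9. It was measured at 17.9, 17.3 and 24.9 FPKM in WT and at 9.86, 11.0 and 11.2 FPKM in *Esrra*-/- replicates 1 to 3. Every knockout value lay below every WT value. The means were 20.0 ± 4.19 and 10.7 ± 0.732 FPKM (SD, n = 3 mice each), the latter being 53.4% of the former, for a log2 fold change of −0.88 (95% interval −1.27 to −0.50, limma adjusted p = 0.186). Leaving out any 1 library kept the call. A stretch at chr17:13909123-13910535 of mm9, inside the gene *Mllt4*, is 97.3% identical to 36.7% of a *Sod2* transcript, so that reads of the stretch could have been shared with *Sod2*. *Mllt4* reached 20.1 FPKM in its highest library, a level like that of *Sod2*, with means of 14.3 FPKM in WT and 16.8 FPKM in *Esrra*-/- and overlapping groups (log2 fold change 0.23, limma adjusted p = 0.684).

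The other dismutases showed a different picture. *Sod1*, the copper and zinc enzyme of the cytosol, was among the most abundant transcripts of the group. Its values were 623, 603 and 1074 FPKM in WT and 753, 659.7 and 829 FPKM in *Esrra*-/-. The groups overlapped, and the log2 fold change was 0.01 (95% interval −0.62 to 0.64). *Sod3*, the secreted enzyme, stayed between 0.139 and 0.341 FPKM in all 6 libraries and was not tested. *Sod2* stood at 2.87%, 2.88% and 2.32% of the *Sod1* level in the WT mice and at 1.31%, 1.66% and 1.36% in the *Esrra*-/- mice. This ratio within each library, which does not depend on how libraries are scaled to each other, did not overlap between the genotypes.

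*Txn2*, the thioredoxin of mitochondria that keeps PRDX3 reduced, lies at chr15:77745477-77759436 on the minus strand of mm9. It was measured at 106, 111 and 143 FPKM in WT and at 74.7, 75.9 and 86.1 FPKM in *Esrra*-/-. The groups did not overlap, with WT replicate 3 the highest of the 6 libraries. The log2 fold change was −0.60 (95% interval −0.98 to −0.22, limma adjusted p = 0.317), just past the limit of 0.58. It fell short of that limit, at −0.46, −0.56 and −0.57, without WT replicate 3, *Esrra*-/- replicate 1 or *Esrra*-/- replicate 2. *Txn1*, the cytosolic thioredoxin, had 618, 628 and 834 FPKM in WT and 651, 603 and 793 FPKM in *Esrra*-/-. The *Txn1* groups overlapped, with a log2 fold change of −0.02 (95% interval −0.51 to 0.48). As a share of *Txn1*, *Txn2* stood at 17.2%, 17.7% and 17.1% in WT and at 11.5%, 12.6% and 10.9% in *Esrra*-/-, again without overlap. The reductases *Txnrd1* (cytosol) and *Txnrd2* (mitochondria) had log2 fold changes of 0.14 and 0.04, and *Txnip*, which binds and inhibits thioredoxin, of −0.21, none with a p under 0.05.

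The peroxiredoxins are thiol peroxidases placed in different compartments, and of the 5 in the group *Prdx2*, *Prdx3* and *Prdx4* had a p under 0.05, and *Prdx1* and *Prdx6* did not. *Prdx4*, the enzyme of the endoplasmic reticulum, lies at chrX:151758461-151775297 on the minus strand of mm9. It was measured at 13.9, 19.3 and 16.0 FPKM in WT and at 8.32, 12.5 and 10.1 FPKM in *Esrra*-/-. The groups did not overlap, and the means were 16.4 ± 2.69 and 10.3 ± 2.08 FPKM (SD, n = 3 each). Its log2 fold change was −0.67 (95% interval −1.11 to −0.23, limma adjusted p = 0.326), and it was short of the limit without WT replicate 2 (−0.55) or *Esrra*-/- replicate 1 (−0.53).

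*Prdx3*, the peroxiredoxin of the mitochondrial matrix, was measured at 41.0, 49.1 and 53.9 FPKM in WT and at 30.6, 35.7 and 40.3 FPKM in *Esrra*-/-. The groups stood apart by a small gap between the lowest WT and the highest knockout mouse, and the log2 fold change of −0.43 (limma adjusted p = 0.414) did not reach the limit of 0.58. The unadjusted p of *Prdx3* was no longer under 0.05 without WT replicate 2, WT replicate 3, *Esrra*-/- replicate 1 or *Esrra*-/- replicate 2, where the log2 fold change was −0.41, −0.35, −0.33 and −0.44. *Prdx2*, a cytosolic enzyme, was measured at 93.6, 95.3 and 123 FPKM in WT and at 68.9, 66.7 and 78.9 FPKM in *Esrra*-/-. These groups also stood apart, with a log2 fold change of −0.53 (limma adjusted p = 0.342) that passed the limit without WT replicate 1 (−0.60), WT replicate 2 (−0.59) or *Esrra*-/- replicate 3 (−0.60).

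*Prdx1*, also a cytosolic peroxiredoxin, had the highest mean of all 39 genes. Its values were 707, 801 and 1087 FPKM in WT and 626, 622 and 789.5 FPKM in *Esrra*-/-. The groups overlapped, and the log2 fold change was −0.33 (95% interval −0.87 to 0.21, limma adjusted p = 0.629). *Prdx3* as a share of *Prdx1* was 5.63% ± 0.603 in WT and 5.24% ± 0.439 in *Esrra*-/- (SD, n = 3 each) with overlapping groups, unlike the shares of *Sod2* and *Txn2*. *Txnrd2* as a share of *Txnrd1* also overlapped, at 7.81%, 9.59% and 11.1% in WT and 7.49%, 9.06% and 9.91% in *Esrra*-/-. *Prdx6*, which reduces phospholipid peroxides, had a log2 fold change of −0.05 with a 95% interval of −0.36 to 0.26, inside ±0.58. *Prdx5*, found in mitochondria and other compartments and not among the 39 genes, had 236, 254 and 422 FPKM in WT and 180, 167 and 298 FPKM in *Esrra*-/-, with overlapping groups and a log2 fold change of −0.50 (95% interval −1.22 to 0.22).

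**Figure D1:**
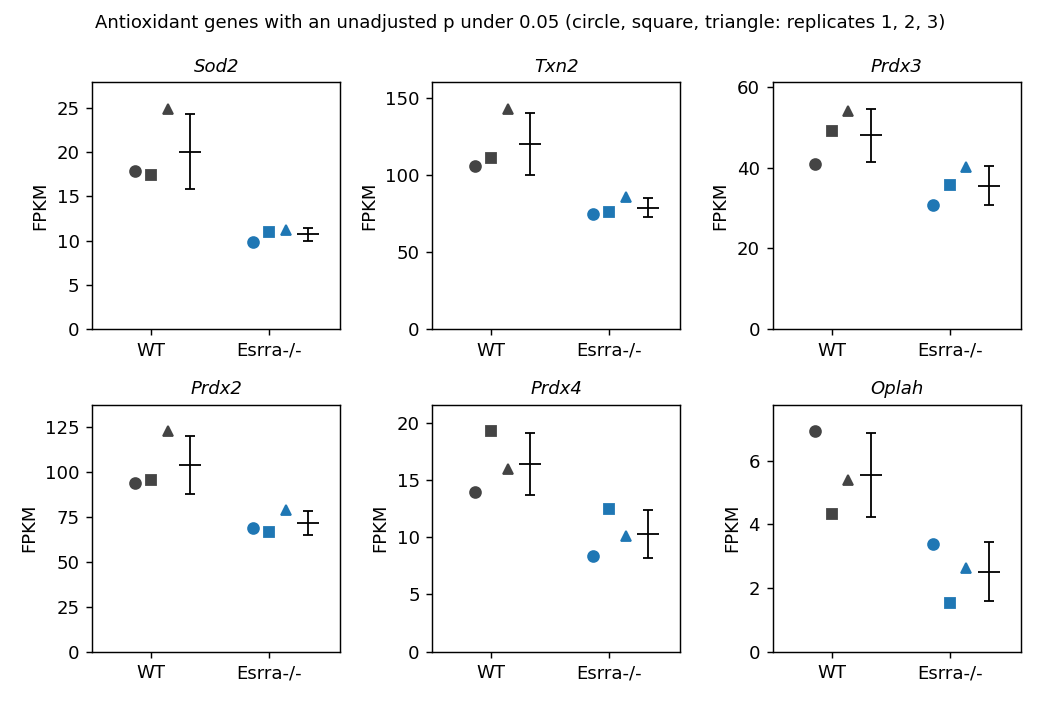
FPKM in each mouse of the 6 genes with an unadjusted limma p under 0.05, by genotype, with 1 point per mouse and the mean with its SD. In each panel all 3 *Esrra*-/- mice lie below all 3 WT mice, from *Sod2* at 9.86 to 11.2 against 17.3 to 24.9 FPKM to *Prdx3* at 30.6 to 40.3 against 41.0 to 53.9 FPKM.

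**Figure D2:**
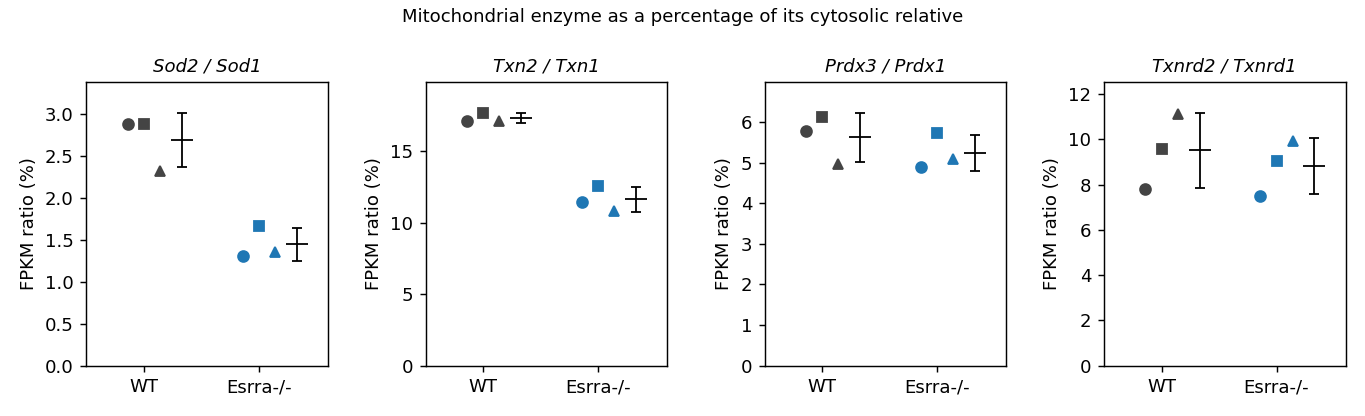
FPKM of the mitochondrial enzyme as a percent of its cytosolic counterpart in the same library, for *Sod2* over *Sod1*, *Txn2* over *Txn1*, *Prdx3* over *Prdx1* and *Txnrd2* over *Txnrd1*, by genotype, with 1 point per mouse and the mean with its SD. The genotypes stand apart for *Sod2* (2.69% ± 0.322 in WT, 1.44% ± 0.193 in *Esrra*-/-) and *Txn2* (17.3% ± 0.322 and 11.6% ± 0.872) and overlap for *Prdx3* and *Txnrd2*.

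Catalase, *Srxn1* and the glutathione peroxidases held no called gene. *Cat*, the peroxisomal enzyme that splits hydrogen peroxide, had 230, 223 and 413 FPKM in WT and 308, 322 and 317 FPKM in *Esrra*-/-. The WT mice spanned the knockout values, and the log2 fold change was 0.19 (95% interval −0.41 to 0.79). *Srxn1* had a log2 fold change of 0.18 with overlapping groups.

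*Gpx4*, the enzyme that removes lipid hydroperoxides from membranes, was measured at 592, 662 and 1054 FPKM in WT and at 753, 639.8 and 899 FPKM in *Esrra*-/-, a log2 fold change of 0.02 with overlapping groups. *Gpx2*, the glutathione peroxidase of gut epithelium, was measured at 386, 436 and 252 FPKM in WT and at 189, 275 and 427 FPKM in *Esrra*-/-. Its difference had opposite signs in the 2 strata, −0.85 among mice with Y-linked transcripts and 0.76 between the mice without them, and the pooled log2 fold change of −0.31 had a 95% interval of −1.10 to 0.48. *Gpx1*, the widespread cytosolic enzyme, stood apart between the groups (295.8 to 321 FPKM in WT, 233 to 285 FPKM in *Esrra*-/-) with a log2 fold change of −0.24 and a limma adjusted p of 0.613. *Gpx3*, the secreted form, and *Gpx7*, of the endoplasmic reticulum, had log2 fold changes of 0.10 and 0.45 at means of 8.49 and 1.53 FPKM, neither with a p under 0.05. *Gpx8* was at most 0.189 FPKM and was not tested.

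Glutathione is built by glutamate-cysteine ligase (*Gclc* and *Gclm*) and glutathione synthase (*Gss*), recycled by its reductase (*Gsr*), and broken down at the brush border by *Ggt1*. *Ggct* and *Oplah* then return its glutamate through 5-oxoproline. *Oplah*, the 5-oxoprolinase of this cycle, was the 1 of 7 genes called. It lies at chr15:76127027-76158445 on the minus strand of mm9 and was measured at 6.93, 4.31 and 5.39 FPKM in WT and at 3.38, 1.53 and 2.62 FPKM in *Esrra*-/-. The groups did not overlap, and the knockout mean was 45.3% of the WT mean (2.51 ± 0.932 against 5.54 ± 1.31 FPKM, SD, n = 3 each). The log2 fold change of −1.15 was the most negative of the 35 (95% interval −1.87 to −0.44, limma adjusted p = 0.307), at a level where *Esrra*-/- replicates ranged widely. The call was kept with any 1 library left out.

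The enzymes that make glutathione had no call in either direction, with log2 fold changes of −0.26 for *Gclc*, 0.32 for *Gclm* and 0.13 for *Gss*. *Gsr* stood at −0.10 and *Ggct* at 0.12. *Ggt1*, an abundant transcript at 543, 497 and 770.1 FPKM in WT and 666, 616 and 1016 FPKM in *Esrra*-/-, had a log2 fold change of 0.33 with overlapping groups (95% interval −0.30 to 0.97). The glutaredoxins *Glrx* (cytosol) and *Glrx2* (mitochondria and nucleus), which reduce protein mixed disulfides with glutathione, stood at 0.19 and −0.09. *Glrx* was measured at 279, 273 and 454 FPKM in WT and at 364, 259 and 539 FPKM in *Esrra*-/-. *Msra*, which repairs oxidised methionine, stood at 0.10, and *Msrb2*, its mitochondrial counterpart for the other stereoisomer, was at most 0.371 FPKM and was not tested.

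*Nfe2l2*, which encodes the regulator, was measured at 226, 177 and 238 FPKM in WT and at 203, 195 and 167 FPKM in *Esrra*-/-. The groups overlapped, with a log2 fold change of −0.17 (95% interval −0.59 to 0.24). *Keap1*, its inhibitor, had 12.4, 11.8 and 12.3 FPKM in WT and 13.2, 13.7 and 15.4 FPKM in *Esrra*-/-. All knockout values of *Keap1* lay above all WT values, the only such case among the 35, with a log2 fold change of 0.21 and a limma adjusted p of 0.544. *Nqo1*, a quinone reductase used as a marker of NFE2L2 activity, had 30.4, 25.6 and 37.0 FPKM in WT and 26.9, 28.1 and 31.5 FPKM in *Esrra*-/-, with overlapping groups and a log2 fold change of −0.09 (95% interval −0.47 to 0.29). Counting every gene whose groups stood apart gave 7 of 35 lower and 1 of 35 higher in *Esrra*-/-, where 17.6% of all genes tested stood apart, 9.14% lower and 8.45% higher.

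*Nnt*, the transhydrogenase that makes NADPH in the inner mitochondrial membrane, was measured at 8.52, 7.62 and 11.6 FPKM in WT and at 9.70, 9.51 and 13.9 FPKM in *Esrra*-/-. The groups overlapped, with a log2 fold change of 0.26 (95% interval −0.24 to 0.75). The list of 7 genes for the mitochondrial matrix was made by choice. It holds *Glrx2*, which also has a nuclear form, and *Nnt*, whose product sits in the inner membrane. It does not hold *Gpx1*, *Gpx4*, *Gsr* or *Msra*, which have mitochondrial forms. Of the 7 genes, *Sod2* and *Txn2* were lower, *Prdx3* had a p under 0.05, *Glrx2*, *Txnrd2* and *Nnt* did not, and *Msrb2* was too low to test. The median of the 6 tested was −0.26, beside 0.01 for the other 29 genes tested. As a reference, 21 of 30 nuclear genes of respiratory complexes I and IV were called lower, with a median of −0.65. That list was written with earlier results of these data known and is no independent evidence.

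Among the 35 genes tested, the peroxide-making oxidase *Duox2* and its partner *Duoxa2* had the widest spread, the highest library being 13.5 and 9.69 times the lowest. *Duox2*, the dual oxidase of the epithelial surface, was measured at 7.60, 8.99 and 0.666 FPKM in WT and at 4.94, 5.80 and 1.73 FPKM in *Esrra*-/-. *Duoxa2*, the factor that matures it, was measured at 4.76, 5.53 and 0.571 FPKM in WT and at 2.59, 2.57 and 0.709 FPKM in *Esrra*-/-. For both genes the lowest library of each genotype was replicate 3, the one nearly without Y-linked transcripts. The log2 fold changes of 0.01 for *Duox2* (95% interval −2.21 to 2.22) and −0.55 for *Duoxa2* (95% interval −2.58 to 1.47) left wide ranges. Within the strata the differences had opposite signs, −0.62 and 1.26 for *Duox2* and −0.96 and 0.27 for *Duoxa2*, in mice with and without Y-linked transcripts. Without WT replicate 3 they were −1.14 (limma adjusted p = 0.439) and −1.54 (limma adjusted p = 0.414), so that *Duoxa2* was then called lower, in a comparison where only the *Esrra*-/- group held a mouse without Y-linked transcripts. *Nox1*, a superoxide-making oxidase, had 0.56, 0.118 and 0.0279 FPKM in WT and 0.271, 0.948 and 0.0825 FPKM in *Esrra*-/- and was not tested.

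**Figure D3:**
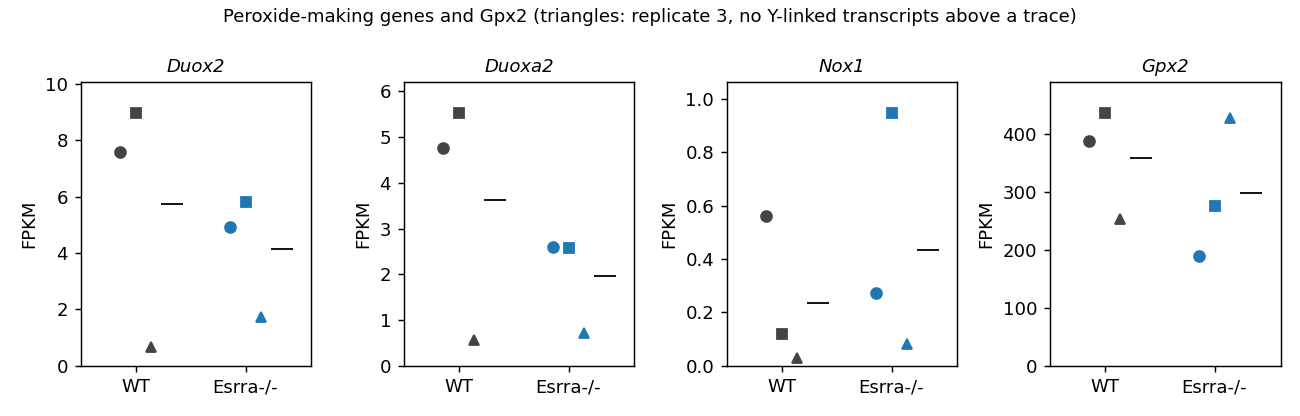
FPKM of *Duox2*, *Duoxa2*, *Nox1* and *Gpx2* in each mouse, by genotype, with circles, squares and triangles for replicates 1, 2 and 3 and a line at the mean of each group. The triangle, the mouse nearly without Y-linked transcripts, is the lowest of its genotype for the first 3 genes (0.666 and 1.73 FPKM for *Duox2*), while for *Gpx2* it is the lowest in WT (252 FPKM) and the highest in *Esrra*-/- (427 FPKM).

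By level, 12 of the 35 genes had a mean above 100 FPKM, 16 between 10 and 100 and 7 below 10. The 8 most abundant were *Prdx1*, *Gpx4*, *Sod1*, *Txn1*, *Ggt1*, *Glrx*, *Gpx2* and *Cat*, with means over all 6 libraries from 772 down to 302 FPKM. The first 5 of these, between 772 and 685 FPKM, did not differ in level beyond the spread between mice. None of these 8 was called, and the genes called lower ranked 13 (*Txn2*), 25 (*Sod2*), 26 (*Prdx4*) and 32 (*Oplah*) by mean level. Copies at least 90% identical over at least 30% of a transcript were found in mm9 for 8 of the 39 genes, *Sod1*, *Sod2*, *Prdx1*, *Prdx6*, *Gpx2*, *Gpx4*, *Txn1* and *Glrx*, whose values are uncertain where reads were split between copies. *Txn2*, *Prdx2*, *Prdx3*, *Prdx4* and *Oplah* had none.

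**Figure D4:**
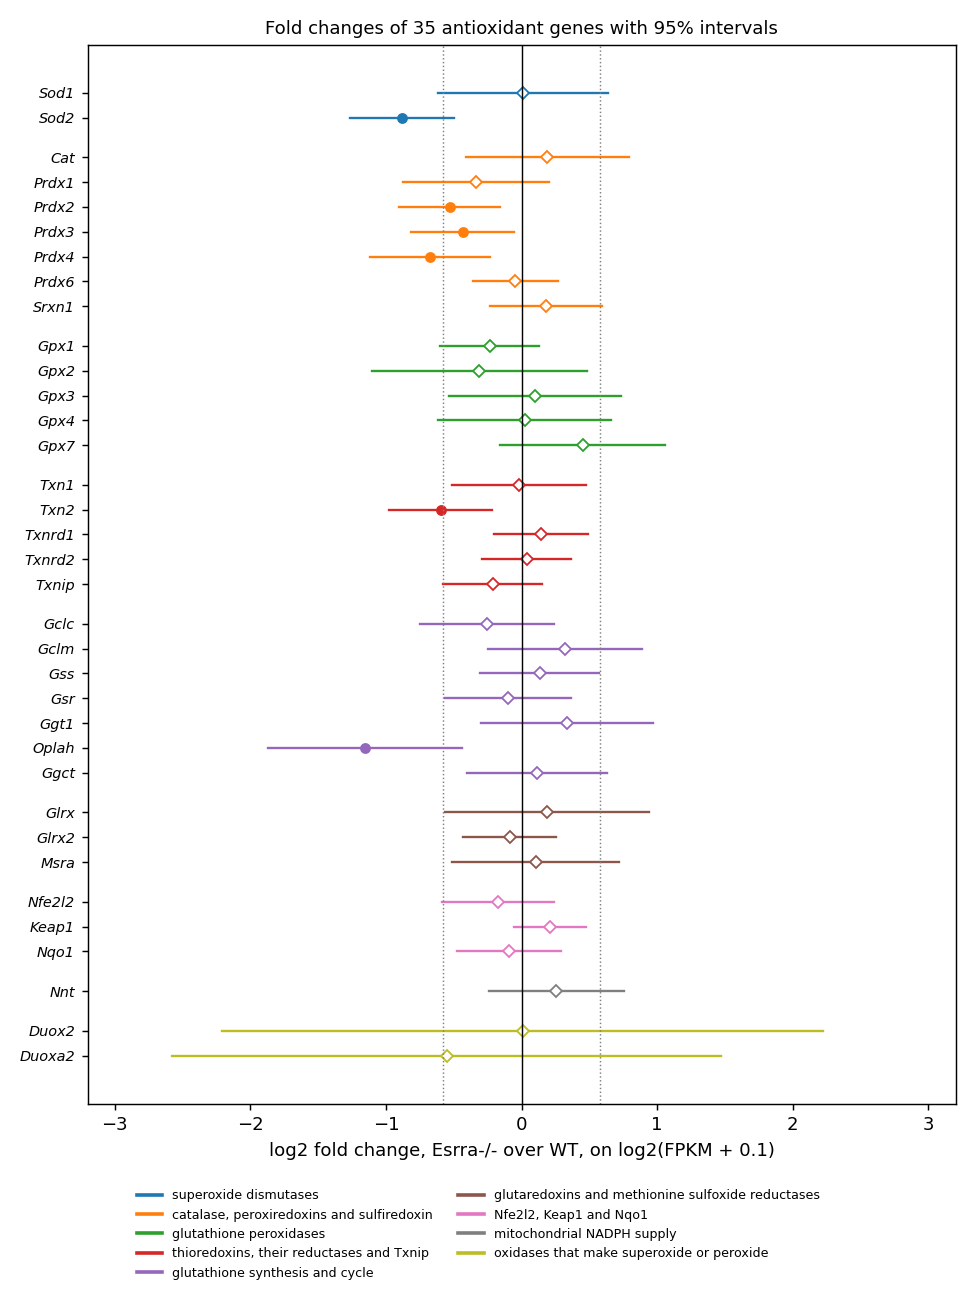
Log2 fold change, *Esrra*-/- over WT, of the 35 genes tested with its 95% interval from limma, grouped and coloured by role, with dotted lines at ±0.58, filled circles for an unadjusted p under 0.05 and open diamonds for the rest. The intervals of *Sod2*, *Txn2*, *Prdx4*, *Oplah*, *Prdx2* and *Prdx3* lie below 0, those of the other 29 include 0, and those of *Duox2* and *Duoxa2* are the widest.

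For 10 of the 35 genes the whole 95% interval lay inside ±0.58. For 19 genes that were not called it both included 0 and reached beyond 0.58 in size, so that a change of the size called could not be told from none with 3 mice per group. For the 6 genes with a p under 0.05 the groups did not overlap, which fixes the sign of the difference within each stratum. In mice with and without Y-linked transcripts it was −0.75 and −1.14 on the log2 scale for *Sod2*, −0.53 and −0.73 for *Txn2*, −0.44 and −0.42 for *Prdx3*, −0.48 and −0.64 for *Prdx2*, −0.68 and −0.66 for *Prdx4* and −1.22 and −1.01 for *Oplah*. Replicate 3 was the highest library of its genotype for 24 of the 35 genes, in WT and likewise in *Esrra*-/-. The same count was not made over all genes tested, so it cannot be called particular to these genes. Each library's deviation from a gene's own mean over all 6 libraries was summarised as the median over genes. For the 6 genes this median was 0.13, 0.25 and 0.54 in WT and −0.40, −0.36 and −0.26 in *Esrra*-/- on the log2 scale. For the complex I and IV genes it was 0.13, 0.19 and 0.66 in WT and −0.43, −0.46 and −0.13 in *Esrra*-/-, so that WT replicate 3 stood highest in both.

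Transcripts that mark cell types of the crypt base were also compared. The summed level of 6 Paneth cell markers ran from 9802 to 19874 FPKM in WT and from 1917 to 8409 FPKM in *Esrra*-/-, and 4 of the 6 were called lower. The sum of 8 crypt stem and progenitor markers ran from 167 to 292 FPKM in WT and from 73.7 to 212 FPKM in *Esrra*-/-, with overlapping sums and 2 of 8 called lower. No marker in these lists was at 0. The 8 villus enterocyte markers summed to 36607 to 61134 FPKM in WT and 46487 to 62530 FPKM in *Esrra*-/-, the 7 goblet markers to 6176 to 7242 and 7212 to 7609 FPKM, the 7 enteroendocrine markers to 278 to 432 and 299 to 343 FPKM, and the 6 tuft markers to 62.6 to 114 and 73.8 to 112 FPKM. None of these lists held a marker at 0 in all libraries or a marker that was called. All 8 villus enterocyte markers had positive log2 fold changes, from 0.09 to 0.48, and the goblet, enteroendocrine and tuft markers had both signs. Immune markers summed to 21.4 to 32.3 FPKM in WT and 20.1 to 33.3 FPKM in *Esrra*-/-, 5 of 8 mesenchymal markers stayed under 1 FPKM in every library, and 6 of 8 pancreatic acinar markers were at 0 in all. The part of the Paneth and crypt markers in the lower values of *Sod2*, *Txn2*, *Prdx4* and *Oplah* was not tested.

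Other genes of the same pathways, 110 symbols of which 97 stood in the table and 75 were tested, gave 2 called lower and 2 called higher, with a median log2 fold change of 0.03. Among 22 further NFE2L2-linked genes tested none was called by limma, 1 had a p under 0.05 (*G6pdx*, which makes cytosolic NADPH, log2 fold change 0.35, limma adjusted p = 0.411) and the median was 0.19. Among 11 enzymes of NADPH supply *Idh2*, the mitochondrial isocitrate dehydrogenase that makes NADPH, was lower, at 23.6, 25.1 and 39.6 FPKM in WT and 18.1, 17.1 and 19.8 FPKM in *Esrra*-/- (−0.64, limma adjusted p = 0.373). It fell short of the limit without WT replicate 3 (−0.41).

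Among 11 genes of selenoproteins and selenium enzymes *Pstk*, a kinase of selenocysteine synthesis, was lower, at 5.54, 7.16 and 6.97 FPKM in WT and 4.58, 3.98 and 3.29 FPKM in *Esrra*-/- (−0.72, limma adjusted p = 0.289). Among 17 other thiol and peroxide enzymes *Chac2* and *Ccs* were higher. *Ccs*, the copper chaperone that loads SOD1, had 27.0, 23.4 and 35.1 FPKM in WT and 38.6, 41.6 and 48.7 FPKM in *Esrra*-/- (0.61, limma adjusted p = 0.342), short of the limit without WT replicate 1 (0.576), WT replicate 2 (0.47) or *Esrra*-/- replicate 3 (0.51) and with quantile normalization (0.56). *Chac2*, which degrades glutathione, had 7.44, 6.99 and 7.42 FPKM in WT and 10.9, 9.99 and 15.6 FPKM in *Esrra*-/- (0.70, limma adjusted p = 0.29), and was short of it without *Esrra*-/- replicate 3 (0.51). The 11 genes of cysteine and glutamate supply and the 6 other NADPH oxidase genes tested held no call.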

How the data were processed

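Duodenal epithelial RNA of 6 mice, 3 per genotype, was sequenced in paired-end libraries made with a TruSeq kit. The authors checked reads with FastQC 0.11.3, quantified them with kallisto 2.1.0 against mm9 and computed FPKM with DESeq2 2.2.1, versions as given in the submitters' processing notes. The annotation they used is not given in the sources used here. The deposited table of FPKM values, scaled by transcript length and library, was used. A deposited table of the authors' own comparison (mean count, log2 fold change, its error, test statistic, p-value and adjusted p) was not used.

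Genes whose mean over the 6 libraries exceeded 1 FPKM entered limma 3.58.1 (lmFit, eBayes with trend) on log2(FPKM + 0.1), a scale that understates changes of low genes, with p-values adjusted over these genes by Benjamini-Hochberg. The thresholds are those of the study. *Esrra* and the 4 genes called were also tested by a two-sided exact permutation test, which gave p = 0.1 for each, the smallest that 3 mice against 3 allow. The fit was tested on simulated data.

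Gene positions came from GENCODE M1 (mm9), copies from minimap2 2.31-r1302 and promoters from RefSeq. The 39 genes and the other lists were drawn up with earlier results of these data known, and the rule itself, a list of symbols, used no measured value. Values per library were given for *Esrra*, for genes with p under 0.05, the 8 most abundant, *Nfe2l2*, *Keap1*, *Nqo1*, *Nnt* and the oxidases, and, from the other lists, for genes called. The ratios of mitochondrial to cytosolic enzymes, *Gpx1*, *Prdx5* and *G6pdx* were chosen after their values were seen. Alternatives were another pseudocount, other filters on low values, quantile and median-ratio scaling, no trend, the replicate number as a block, Y-linked transcripts as a covariate, other thresholds and each library left out.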

Additional observations from a re-analysis of the deposited data

How the results depend on the processing

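*Sod2* and *Oplah* were called lower under all 14 other fits, *Prdx4* under 12 and *Txn2* under 11. The log2 fold change of *Sod2* ran from −0.98 to −0.72 and its adjusted p from 0.0514 to 0.63, and that of *Oplah* from −1.40 to −0.85 and from 0.0749 to 0.586. No gene of the group had an adjusted p under 0.05 in any of them. The 4 genes called were the same under each alternative to the pseudocount, filter, scaling, trend, block and covariate. With libraries left out, the number called lower ran from 2 (without *Esrra*-/- replicate 1) to 5, and that over all genes from 252 to 533 (the latter without *Esrra*-/- replicate 2). Requiring an adjusted p under 0.05 called 0 of the group, and 2 lower and 2 higher genes in all. With no limit on the fold change 688 genes were lower and 456 higher. With no filter on low values 528 were lower and 277 higher, and the median of the mitochondrial genes was −0.0884, as *Msrb2* then entered.

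The labels do not say whether equal replicate numbers pair the mice. Between the genotypes, the correlations of deviations were 0.0116, 0.263 and 0.376 for equal numbers 1 to 3. For unequal numbers they ran from −0.37 to 0.18. Libraries numbered 2 and 3 correlated best with their own number, and those numbered 1 did not. With 3 numbers these values do not settle whether the mice were paired, and the main fit used no pairing. With the replicate number as a block, 11 of the group had a p under 0.05 (*Prdx1* and *Gpx1* with negative and *Gclm*, *Ggt1* and *Nnt* with positive fold changes besides the 6), as did 21.6% of all genes, and with the Y-linked covariate 10 did, as did 18.6% of all genes, against 10.8% without either. Signs turned only for genes that were not called: *Duox2* with a pseudocount of 1 (−0.13), *Txn1* with quantile normalization (0.14) and, with libraries left out, *Sod1* (−0.14 to 0.28), *Gpx3* (−0.21 to 0.29), *Gpx4* (−0.14 to 0.27), *Txnrd2* (−0.0342 to 0.16), *Msra* (−0.0747 to 0.38), *Gsr* (−0.30 to 0.0186), *Txn1* (−0.13 to 0.12), *Nqo1* (−0.22 to 0.0432), *Duox2* (−1.14 to 0.64), *Gss* (−0.0245 to 0.29), *Glrx* (−0.0849 to 0.44) and *Duoxa2* (−1.54 to 0.0231). The cause of these turns was not tested. The depth of each library, which FPKM values do not give, and the 3 mice per group limit what can be told for genes of low level.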

Other observations

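A single library stood far from the others for several genes of the neighbouring pathways, and those given here were picked after seeing their values. *Ftl1*, the ferritin light chain that stores iron, was measured at 1.39 FPKM in WT replicate 1 and between 631 and 1748 FPKM in the other 5 libraries. *Cth*, which makes cysteine from cystathionine, was measured at 14.5 FPKM in *Esrra*-/- replicate 1 and between 42.8 and 79.1 FPKM in the other 5. Of the further NFE2L2-linked genes, *Cbr3* and *Gsta3* were lowest in *Esrra*-/- replicate 3, at 0.0634 and 1.06 FPKM. The other 5 libraries ran from 0.996 to 2.81 FPKM for *Cbr3* and from 3.33 to 9.61 FPKM for *Gsta3*.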
